A study of Mus musculus with 6 samples.

Results

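Immediate early genes are switched on within minutes of a stimulus, before any new protein is made. Their level in 6 mouse aortic roots is described here for 10 genes: the AP-1 genes Fos, Fosb, Jun and Junb, the transcription factor genes Egr1, Atf3 and Nr4a1, the early response genes Ier2 and Ier3, and the phosphatase gene Dusp1. They were taken by symbol from a deposited table of read counts, and 10 of 10 were found among its 23420 gene symbols. All 10 also passed the filter on low counts, which left 15096 genes for testing. The roots came from C57Bl6/J mice at 12 months of age, 3 labelled Sost+/+ (wild-type) and 3 labelled Sost-/- (both copies of Sost knocked out). Both groups ate standard chow up to 4 months and a high-cholesterol diet (TestDiet 5TJT) for the next 8 months, and both were imaged by echocardiography at 4, 9 and 12 months. Each root was dissected and frozen at once in liquid nitrogen. Neither the time from death to freezing nor the order of dissection was given in the labels. No animal is named either, so a p-value refers to roots only, 3 in each group, numbered 1 to 3 in accession order. The edgeR fit draws the spread of a gene partly from all tested genes. Its SE and p are thus not a measure of that gene's own spread alone.

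Most immediate early genes carry binding sites for factors that already wait in the resting cell, such as CREB and serum response factor (SRF), which kinases of the MAPK pathway activate. Fos and Jun proteins pair to form AP-1, which turns on later genes, while DUSP1 removes phosphate from MAPKs and so ends the signal. The mRNAs are short-lived, and in heart and vessel they are known to respond to stretch, growth factors, low oxygen and the handling of tissue.

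The counts summed to between 37023586 and 48172863 per library, and no 2 libraries were alike within sampling noise. Sost, the targeted gene, had 354, 621 and 274 counts in Sost+/+ replicates 1 to 3, and 2284, 1063 and 513 counts in Sost-/- replicates 1 to 3. The targeted gene was thus not lower in the libraries labelled Sost-/- (log2 fold change 1.56, SE 0.48, edgeR adjusted p = 0.124), and the groups overlapped. Its counts do not by themselves show the loss that the label names, so every direction given here is between libraries as labelled. The log2 fold change of Sost was 0.88 without Sost-/- replicate 1 and 1.93 without Sost-/- replicate 3, where DESeq2 called it higher (DESeq2 adjusted p = 0.0412). Gene counts cannot show which part of Sost the reads come from. Markers of the root's cells were present: 8 of 8 for smooth muscle, 10 of 10 for cardiomyocytes, 9 of 9 for fibroblasts and 8 of 8 for endothelium passed the filter, none at 0 in any library. Bulk RNA cannot tell fewer cells of a type from less RNA per cell.

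Promoter sequences show what some of these genes share and where they differ. RefSeq promoters (build GRCm38.p6) were at hand for 8 of the 10 genes. The 250 bases before the start of transcription are printed for 3 genes whose level varied widely between libraries (Fos, Nr4a1, Dusp1). They are also printed for 2 whose level varied less (Jun, Ier3) and for the gene that fell (Atf3). Capitals mark TGACG on either strand, the half-site of the cAMP response element (CRE) to which CREB binds.
Fos: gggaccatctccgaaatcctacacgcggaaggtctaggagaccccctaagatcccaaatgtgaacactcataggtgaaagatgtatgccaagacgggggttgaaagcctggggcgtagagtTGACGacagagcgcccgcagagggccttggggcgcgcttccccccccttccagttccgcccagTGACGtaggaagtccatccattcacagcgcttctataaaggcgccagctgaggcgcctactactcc
Nr4a1: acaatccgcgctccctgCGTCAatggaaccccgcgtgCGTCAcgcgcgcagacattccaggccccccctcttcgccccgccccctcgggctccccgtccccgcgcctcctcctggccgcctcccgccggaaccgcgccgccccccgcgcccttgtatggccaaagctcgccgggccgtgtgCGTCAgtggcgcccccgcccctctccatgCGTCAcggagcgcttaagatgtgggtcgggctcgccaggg
Dusp1: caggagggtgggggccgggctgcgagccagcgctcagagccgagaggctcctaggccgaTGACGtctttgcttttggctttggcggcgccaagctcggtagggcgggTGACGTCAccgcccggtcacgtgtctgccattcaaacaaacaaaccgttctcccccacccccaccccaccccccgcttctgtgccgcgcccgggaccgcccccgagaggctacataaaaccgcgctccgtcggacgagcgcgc
Jun: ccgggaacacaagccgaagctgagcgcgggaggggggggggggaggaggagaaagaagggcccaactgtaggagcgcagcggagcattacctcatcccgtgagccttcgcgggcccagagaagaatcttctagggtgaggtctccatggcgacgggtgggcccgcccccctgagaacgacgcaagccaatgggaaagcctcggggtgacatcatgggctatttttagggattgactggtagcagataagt
Ier3: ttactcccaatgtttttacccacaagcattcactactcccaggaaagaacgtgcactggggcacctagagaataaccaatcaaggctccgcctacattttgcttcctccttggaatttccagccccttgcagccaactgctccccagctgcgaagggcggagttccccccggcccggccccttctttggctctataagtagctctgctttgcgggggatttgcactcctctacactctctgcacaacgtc
Atf3: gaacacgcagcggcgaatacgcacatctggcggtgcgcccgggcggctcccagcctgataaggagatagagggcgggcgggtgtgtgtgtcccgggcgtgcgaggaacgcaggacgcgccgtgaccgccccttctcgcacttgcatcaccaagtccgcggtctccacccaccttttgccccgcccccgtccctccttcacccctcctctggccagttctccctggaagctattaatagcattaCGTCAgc
These windows lie at chr12:85473640-85473889 on the plus strand (Fos), chr15:101266596-101266845 on the plus strand (Nr4a1), chr17:26508473-26508722 on the minus strand (Dusp1), chr4:95052223-95052472 on the minus strand (Jun), chr17:35821463-35821712 on the plus strand (Ier3) and chr1:191183334-191183583 on the minus strand (Atf3). In GENCODE M21 the models of Nr4a1, Dusp1 and Atf3 also hold starts farther upstream, so each window stands for 1 start of its gene.

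The half-site was found 4 times in the Nr4a1 window, 3 times in that of Dusp1 and 2 times in that of Fos. Fosb, Junb and Atf3 held it 1 time each, and the windows of Jun and Ier3 did not hold these letters. It was thus in 6 of 8 windows, against 17.8% of all 32851 RefSeq windows of this length and 25.7% of the 12924 windows with a GC content between 54.4% and 74.4%, the range of the 8. The whole element TGACGTCA, which contains 2 overlapping half-sites, stood in the Dusp1 window alone of the 8 and in 1.55% of all windows. Neither the AP-1 element TGACTCA (either strand, 4.46% of all windows) nor the CArG box that SRF binds (1.47%) was found in the 8. A match describes letters in a window and not a site in use. The lack of a match holds for these short windows only and does not show that a gene lacks the element elsewhere. Egr1 and Ier2 had no promoter at hand and were not searched. A link between half-sites and spread was not tested, and Fosb, which varied widely, and Junb, which varied less, held 1 each.

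Fos, Fosb, Egr1, Nr4a1 and Dusp1 differed more among the 3 roots labelled Sost-/- than between the means of the groups. In the libraries labelled Sost-/-, replicate 1 held 2.25 to 3.22 times the level of replicate 2 for these 5 genes, and replicate 3 lay between them. The libraries labelled Sost+/+ spanned a narrower range. None of the 5 passed the test between groups. These 5 were set apart from the others after their values were seen.

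**Figure D1:**
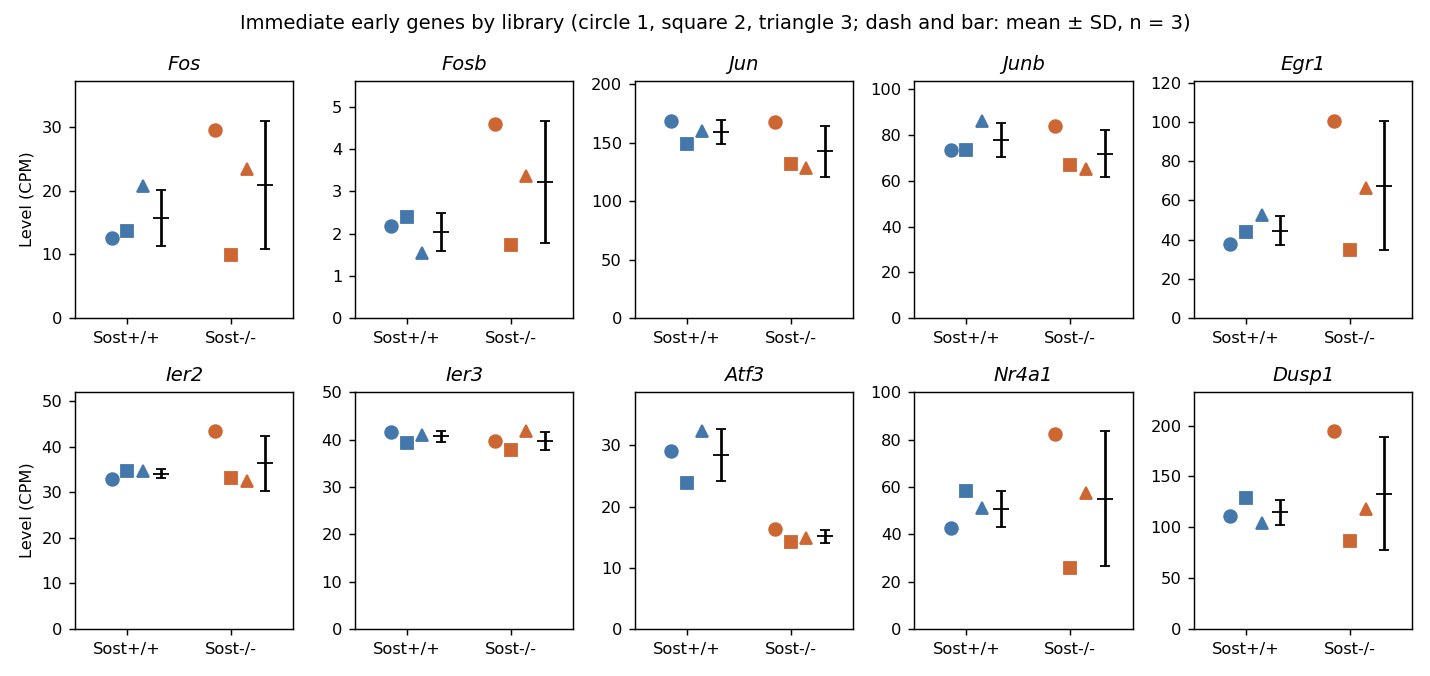
Level of each immediate early gene in CPM (vertical axes, linear and from 0) in the 3 libraries labelled Sost+/+ (blue) and the 3 labelled Sost-/- (orange); the symbol gives the replicate, and the dash with its bar is the mean ± SD (n = 3). In Fos, Fosb, Egr1, Nr4a1 and Dusp1 the orange circle is the highest point and the orange square lies far below it, while the 3 orange points of Atf3 all lie below the 3 blue points.

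Fos encodes the founding Fos partner of AP-1. Its level in CPM (the count set against the TMM-scaled size of its library) was 12.6, 13.7 and 20.7 in Sost+/+ replicates 1 to 3, and 29.5, 9.87 and 23.5 in Sost-/- replicates 1 to 3. Both the highest and the lowest of the 6 were labelled Sost-/-, so the groups overlapped. The means were 15.7 ± 4.38 and 21.0 ± 10.1 CPM (SD, n = 3 each), a log2 fold change of 0.42 (SE 0.34, edgeR adjusted p = 0.525). Fosb, whose protein can take the place of FOS in AP-1, was the scarcest of the 10, with 2.18, 2.39 and 1.54 CPM in Sost+/+ and 4.60, 1.73 and 3.37 CPM in Sost-/- libraries. Sost-/- replicates 1 and 3 lay above each Sost+/+ library and replicate 2 did not. Its log2 fold change of 0.67 (SE 0.34) was the largest positive one among the 10 and did not pass (edgeR adjusted p = 0.313).

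Egr1 encodes a zinc finger factor that links growth and stretch signals to matrix and inflammatory genes in the vessel wall. It was at 37.6, 43.7 and 52.7 CPM in Sost+/+ and at 100.7, 35.0 and 66.6 CPM in Sost-/- libraries. Replicate 1 of Sost-/- was above every other library, whereas replicate 2 was below all of them. The difference between groups, a log2 fold change of 0.60 (SE 0.31), did not pass (edgeR adjusted p = 0.316).

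Nr4a1 encodes the orphan nuclear receptor NUR77. Its levels were 42.8, 58.2 and 51.1 CPM in Sost+/+ and 82.3, 25.6 and 57.5 CPM in Sost-/- libraries, the widest ratio within a group among the 10. The group means of 50.7 ± 7.67 and 55.1 ± 28.4 CPM (SD, n = 3 each) were close to each other against that spread (log2 fold change 0.12, SE 0.33, edgeR adjusted p = 0.869). Dusp1, the phosphatase that switches MAPKs off, was at 111.5, 128.5 and 104.2 CPM in Sost+/+ and at 194.4, 86.4 and 118.3 CPM in Sost-/- libraries. Here too the highest and the lowest library were both labelled Sost-/-, and the groups did not differ by the test (log2 fold change 0.21, SE 0.25, edgeR adjusted p = 0.663).

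The sign of 2 of these differences turned when 1 library was left out. Without Sost-/- replicate 1, the log2 fold change of Nr4a1 was -0.29 and that of Dusp1 -0.17, and neither passed. With all libraries kept, that of Nr4a1 was also below 0 by limma-voom (-0.022) and by limma-voom with library weights (-0.071). The log2 fold changes of the other 3 were positive either way but moved with the same libraries. Without Sost-/- replicate 1 they were 0.09 for Fos, 0.32 for Fosb and 0.18 for Egr1. Without Sost-/- replicate 2 they were 0.76 for Fos, 0.97 for Fosb and 0.91 for Egr1, with 0 of the 10 genes called higher by edgeR and 3 (Fos, Fosb and Egr1) by DESeq2, a setting added after the data were seen.

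Counting error was small against these gaps. The ratio of Sost-/- replicate 1 to replicate 2 was 3.22 (95% interval 3.00 to 3.45) for Nr4a1, 2.99 (2.67 to 3.35) for Fos and 2.88 (2.71 to 3.06) for Egr1. Fosb, with 56 to 197 counts per library, had a ratio of 2.67 (2.02 to 3.55), and Dusp1 one of 2.25 (2.16 to 2.34). These exact binomial intervals compare 2 libraries, cover counting error only and treat reads as independent molecules. Of all tested genes, 1.62% were over 2 times as high in replicate 1 as in replicate 2, and 5 of the 10 immediate early genes were. None of the 10 was over 1.5 times as high in replicate 2 as in replicate 1, as 7.32% of tested genes were. Replicate 3 was over 1.5 times replicate 2 in 4 of the 10 (Fos, Fosb, Egr1 and Nr4a1), against 5.57% of tested genes. In 4 of the 10 (Fos, Egr1, Nr4a1 and Dusp1), replicate 1 was the highest and replicate 2 the lowest of all 6 libraries, a pattern of 2.65% of tested genes. These comparisons between replicates were chosen after the values of the 10 genes were seen, so the shares are a description and not a test.

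**Figure D2:**
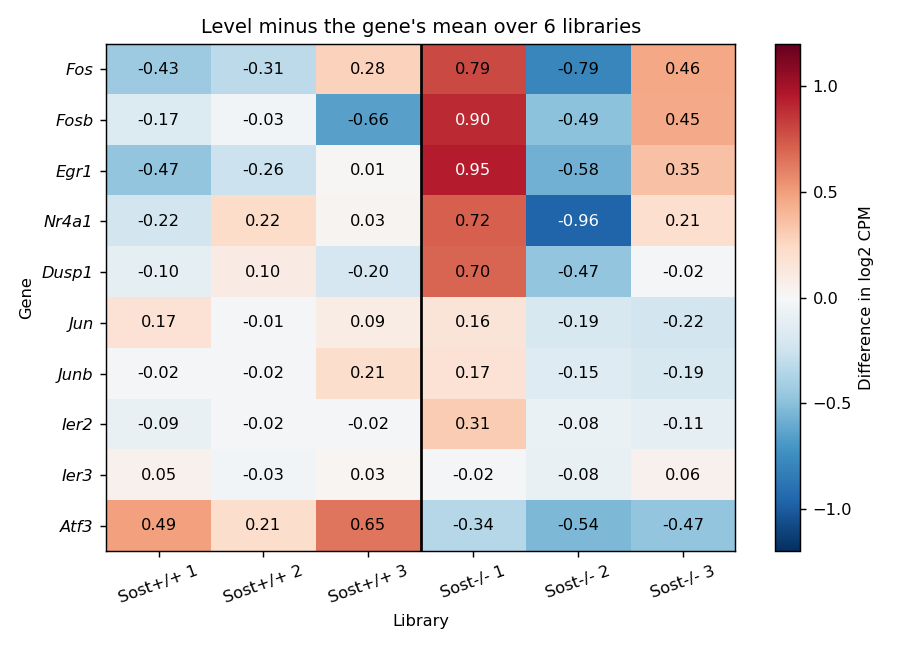
Log2 CPM of each immediate early gene (rows) minus its own mean over the 6 libraries (columns, the black line divides the groups; colour and printed number give the difference). The first 5 rows are at 0.70 or more in Sost-/- replicate 1 and at -0.47 or less in replicate 2, whereas the rows of Jun, Junb, Ier2 and Ier3 stay between -0.22 and 0.31.

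Jun, Junb, Ier2 and Ier3 kept a narrower range than Fos, Fosb, Egr1, Nr4a1 and Dusp1 in the same libraries. Jun, the main partner of Fos in AP-1, was at 168.9, 148.9 and 160.1 CPM in Sost+/+ and at 167.6, 131.5 and 128.6 CPM in Sost-/- libraries. Junb, a Jun relative that often restrains its activity, was at 73.3, 73.7 and 86.4 CPM in Sost+/+ and at 83.9, 66.9 and 65.2 CPM in Sost-/- libraries. For both, Sost-/- replicate 1 lay within the Sost+/+ range and replicates 2 and 3 lay below it. Their log2 fold changes of -0.16 (SE 0.12) and -0.11 (SE 0.12) did not pass (edgeR adjusted p = 0.478 and 0.632). Gene models on the opposite strand overlap Jun (Junos), Junb (Prdx2) and Dusp1 (Ergic1). The strand setting of the counting was not stated, so reads of these pairs may not have been told apart.

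Ier2 encodes a nuclear protein of the early response. It was within 33.0 to 34.6 CPM in the 3 Sost+/+ libraries, and at 43.4, 33.2 and 32.6 CPM in Sost-/- libraries. Replicate 1 of Sost-/- was thus again the highest, and the others were near the Sost+/+ level. Ier3, a regulator of cell survival under stress, varied least of the 10, from 37.9 to 41.8 CPM over the 6 libraries. Log2 fold changes were 0.10 (SE 0.12) for Ier2 and -0.03 (SE 0.08) for Ier3 (edgeR adjusted p = 0.686 and 0.858). The ratio of Sost-/- replicate 1 to replicate 2 was 1.27 (95% interval 1.23 to 1.32) for Jun, 1.25 (1.19 to 1.32) for Junb, 1.31 (1.22 to 1.40) for Ier2 and 1.05 (0.976 to 1.12) for Ier3. The first 3 intervals lie above 1 and that of Ier3 includes 1.

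Atf3 was the 1 of the 10 genes that changed between the groups, and it was lower in the libraries labelled Sost-/-. It encodes a stress-induced factor of the CREB family and its GENCODE M21 model spans chr1:191170296-191218039, minus strand, in GRCm38. Its levels were 29.1, 23.9 and 32.3 CPM in Sost+/+ and 16.3, 14.2 and 14.8 CPM in Sost-/- libraries, without overlap. The mean fell from 28.5 ± 4.23 to 15.1 ± 1.09 CPM (SD, n = 3 each), a log2 fold change of -0.91 (SE 0.12, edgeR adjusted p = 0.0151). Unlike Fos or Egr1, Atf3 had a narrow spread among the Sost-/- libraries, with a ratio of replicate 1 to replicate 2 of 1.15 (95% interval 1.03 to 1.29).

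The count over the 10 genes was 0 higher and 1 lower, where 2.18% and 0.371% of all 15096 tested genes were called higher and lower (2.55% in all). At an unadjusted p under 0.05 the count was again 0 higher and 1 lower, against 11.6% and 8.62% of all tested genes. By DESeq2 it was 0 and 1 as well, against 5.31% and 2.99% of the 14509 genes to which it gave an adjusted p. No overlap between groups was seen in 1 of 10 genes, against 25.4% of all tested genes (14.3% higher and 11.1% lower). The median log2 fold change of the 10 was 0.11, beside 0.01 over all tested genes. It was -0.11 without Sost-/- replicate 1 and 0.30 without Sost-/- replicate 2, so its sign rested on the former. The call of Atf3 ended without Sost+/+ replicate 1 (log2 fold change -0.91, edgeR adjusted p = 0.0850, when 0 genes passed among all tested) and without Sost-/- replicate 3 (-0.90, edgeR adjusted p = 0.0700). It held in 13 of 15 edgeR, limma and DESeq2 settings, and over these and the DESeq2 fits with a library left out the adjusted p ran from 4.30e-10 to 0.0850 with the direction kept.

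Several marker sums also differed between the groups, in either direction. Smooth muscle markers summed to 1208 to 2567 CPM in Sost+/+ and 3919 to 5925 CPM in Sost-/- libraries, with 7 of 8 called higher. Cardiomyocyte markers summed to 81795 to 88572 CPM and 54114 to 69208 CPM, with 0 of 10 called by edgeR, 7 lower at an unadjusted p under 0.05 and 7 called lower by DESeq2. Fibroblast and valve interstitial markers summed to 5452 to 5907 CPM and 6656 to 7514 CPM, with 1 of 9 called higher, and Schwann cell markers to 31.7 to 38.2 CPM and 42.1 to 58.9 CPM, with 1 of 6 called higher. The groups did not overlap in any of these 4 sums. They overlapped for adipocyte markers (7 of 7 positive, 0 called, 6 higher at an unadjusted p under 0.05). They also overlapped for T and B cell markers (8 of 8 negative, 0 called, 2 lower at that p). Over all tested genes, edgeR called 2.18% higher and 0.371% lower, and DESeq2 called 5.31% and 2.99%. At an unadjusted edgeR p under 0.05 the shares were 11.6% and 8.62%. Of 9 heat shock genes, which encode chaperones of stressed cells, 9 had a negative fold change and 1 was called lower: Hspa8 (log2 fold change -0.54, SE 0.11, edgeR adjusted p = 0.0444, a call that ended in edgeR when any 1 of the 6 libraries was left out). Their sum was 2922 to 3533 CPM in Sost+/+ and 2327 to 2485 CPM in Sost-/- libraries. The part of these cells and genes in the fall of Atf3 was not tested.

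**Figure D3:**
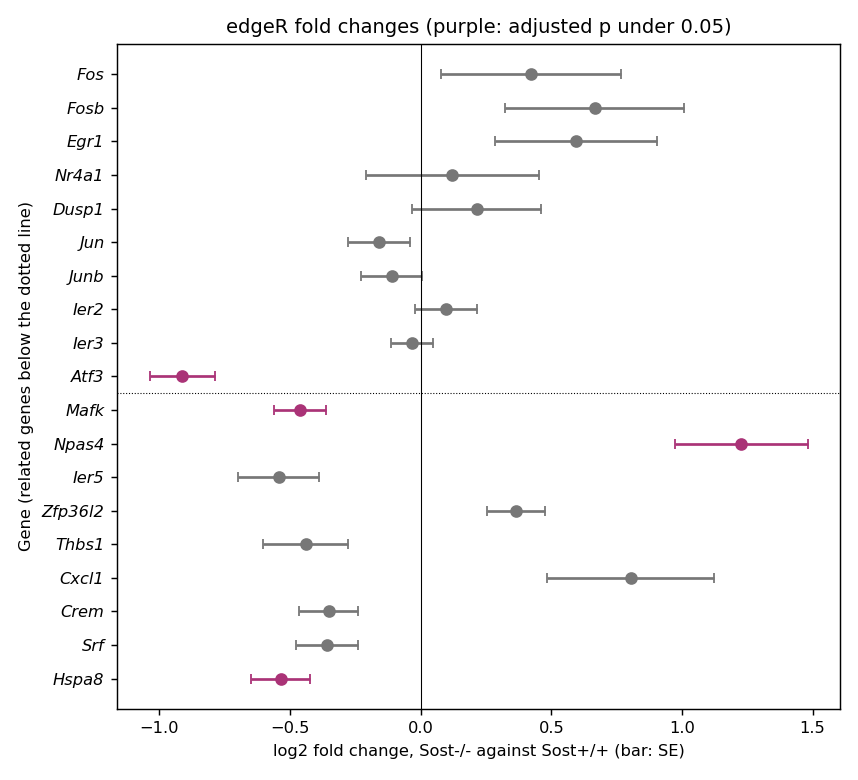
Log2 fold change, Sost-/- against Sost+/+ (horizontal axis; bars are ± SE, from 3 libraries a group), of the 10 immediate early genes (above the dotted line) and of related and heat shock genes named by rule (below it). Atf3, Mafk and Hspa8 lie below 0 and Npas4 above 0 with an adjusted p under 0.05 (purple), and the grey genes did not pass.

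Spread within a group was measured as the SD of log2 CPM, pooled over both groups. Its median over the 10 genes was 0.30, beside 0.16 over all tested genes and 0.14 over the 11206 tested genes whose mean level lies between that of the lowest and the highest of the 10. Fos (0.65), Nr4a1 (0.63), Egr1 (0.57), Fosb (0.55) and Dusp1 (0.43) varied more than 96.7% to 99.1% of genes in that range of levels. Atf3, Junb, Ier2 and Jun (0.16 to 0.17) were nearer the middle, above 61.4% to 64.5% of those genes, and Ier3 (0.06) was above 6.04% of them. Over the Sost-/- libraries alone, the SDs of Ier2, Jun and Junb were above those of 83.5%, 80.2% and 77.8% of those genes. The SDs of Atf3 and Ier3 there were above 42.9% and 25.0%. The median over the 10 was 0.20 without Sost-/- replicate 1 and 0.23 without replicate 2.

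The spread was larger in Sost-/- than in Sost+/+ libraries for 9 of the 10 genes, Atf3 being the exception, whereas this held for 43.6% of all tested genes. For Nr4a1 the SD was 0.22 in Sost+/+ and 0.86 in Sost-/-, and for Egr1 it was 0.24 and 0.77. Fos had 0.38 and 0.83. The median SD of the 10 was 0.41 in Sost-/- and 0.19 in Sost+/+, beside 0.12 and 0.14 over genes in their range of levels. In Sost+/+ the SDs of Fos, Fosb, Egr1, Nr4a1 and Dusp1 were above 94.7%, 91.7%, 82.0%, 77.5% and 56.9% of those genes. The Sost+/+ SDs of Atf3, Junb, Jun, Ier3 and Ier2 were above 77.0%, 49.0%, 28.6%, 7.36% and 7.24%. Among the Sost+/+ libraries, 2 of the 10 genes (Fos and Fosb) spanned over 1.5 times, against 20.1% of all tested genes, whatever their level. Replicate 3 was highest in that group for 5 genes, replicate 2 for 3 and replicate 1 for 2. With 3 libraries a group, the difference in spread between groups was not tested.

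**Figure D4:**
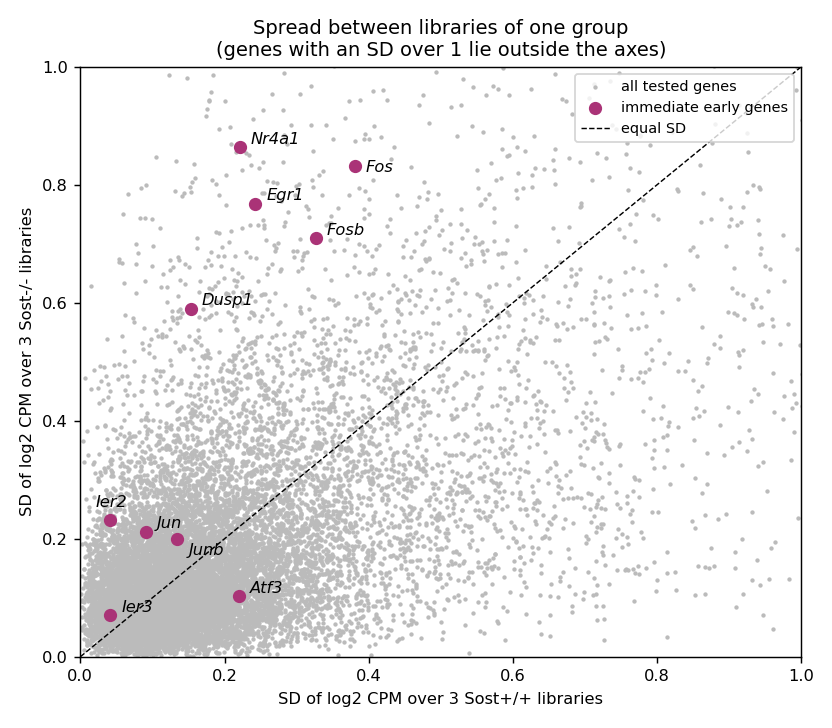
SD of log2 CPM over the 3 Sost+/+ libraries (horizontal) and over the 3 Sost-/- libraries (vertical) for all tested genes (grey) and the immediate early genes (purple); the dashed line marks equal SD, and genes with an SD over 1 lie outside the axes. Fos, Fosb, Egr1, Nr4a1 and Dusp1 lie far above the line, between 0.59 and 0.86 on the vertical axis, and Atf3 lies below it.

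Other cell markers also differed between Sost-/- replicates 1 and 2. Endothelial markers were higher in replicate 1 for 8 of 8 genes, with sums of 1154 CPM there, 839 in replicate 2 and 889 in replicate 3, against 992 to 1136 CPM in Sost+/+ libraries. Macrophage markers were higher in replicate 2 for 7 of 7 genes, with sums of 924, 1548 and 1251 CPM in Sost-/- replicates 1 to 3 and 1033 to 1205 CPM in Sost+/+. Adipocyte markers, 7 of 7 higher in replicate 2, summed to 898, 1625 and 1221 CPM, and to 704 to 1083 CPM in Sost+/+. Of 5 mesothelial markers 4 were higher in replicate 1 (median ratio 1.56), yet their sum was 19.2, 13.5 and 104.2 CPM in Sost-/- replicates 1 to 3, highest in replicate 3, and 18.2 to 35.6 CPM in Sost+/+. Both tested erythroid markers, of 6 listed, were higher in replicate 1 (median ratio 9.17, with as few as 2 counts in a library), with sums of 10.9, 5.77 and 8.31 CPM and 6.31 to 18.7 CPM in Sost+/+. Heat shock genes were nearly level in these 2 libraries, at 2370 and 2485 CPM. Cells, handling and depth were not tested as sources of the immediate early gene pattern, and total counts in replicates 1 and 2 were 41803775 and 38870673.

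Per kilobase of merged exons, Jun was the most abundant of the 10 genes, with a mean of 47.3 CPM per kb over 6 libraries and a range of 40.3 to 53.0. Dusp1 followed at 37.4, Ier3 at 35.6, Junb at 32.6, Ier2 at 23.2, Nr4a1 at 15.1, Egr1 at 12.5, Atf3 at 10.1 and Fos at 7.79 CPM per kb. The range of each of these over the 6 libraries overlapped that of its neighbours in the order. Within every library, however, Junb was above Ier2 and Ier2 was above Nr4a1. Fosb, at 0.422 CPM per kb and at most 0.737, stood below Fos, whose lowest library was at 4.20.

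The 5 lists of related rapid-response genes, 108 tested genes in all, held 1 gene that rose and 1 that fell by edgeR. Over all tested genes, edgeR called 2.18% higher and 0.371% lower. Among 14 other AP-1 and bZIP factors, Mafk, a small Maf partner, fell from 117.1 ± 2.42 to 85.1 ± 9.67 CPM (SD, n = 3 each; log2 fold change -0.46, SE 0.10, edgeR adjusted p = 0.0484). Among 16 other EGR, NR4A, KLF and similar factors, Npas4, an activity-induced factor known from neurons, had means of 1.40 ± 0.313 CPM in Sost+/+ and 3.30 ± 0.674 CPM in Sost-/- and rose (log2 fold change 1.23, SE 0.25, edgeR adjusted p = 0.0436). In edgeR the call of Mafk ended when any 1 of the 6 libraries was left out, and that of Npas4 remained only when Sost-/- replicate 2 was the one left out. DESeq2 called 1 higher and 6 lower of the related genes, against 5.31% and 2.99% over all genes. Of those 6, 3 were AP-1 and bZIP factors. At an unadjusted edgeR p under 0.05, 0 of the 14 AP-1 and bZIP factors were higher and 5 lower. The 16 EGR, NR4A, KLF and similar factors had 3 higher and 1 lower, against 11.6% and 8.62% of all tested genes. Without overlap between groups, 0 and 4 of the 14 and 2 and 1 of the 16 were higher and lower, against 14.3% and 11.1%.

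In the other 3 lists no gene passed in edgeR. The smallest p among 31 feedback inhibitors belonged to Ier5 (log2 fold change -0.54, edgeR adjusted p = 0.105) and the mRNA decay factor Zfp36l2 (0.36, adjusted p = 0.124). Among 26 rapidly induced secreted and other genes it belonged to the matrix protein gene Thbs1 (-0.44, adjusted p = 0.180) and the chemokine gene Cxcl1 (0.80, adjusted p = 0.207). Of 21 upstream kinases and factors, Crem (-0.35, adjusted p = 0.134) and Srf (-0.36, adjusted p = 0.144) came first. At an unadjusted p under 0.05, 2 feedback inhibitors were higher and 6 lower, 4 secreted and other genes were higher and 2 lower, and 1 upstream gene was higher and 3 lower, where 11.6% of all tested genes were higher and 8.62% lower. DESeq2 called 3 of the feedback inhibitors lower and none of the other 2 lists.

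The gap between Sost-/- replicates 1 and 2 was seen in some relatives and not in others. Replicate 1 was over 1.5 times replicate 2 in 20 of the 108 related genes (18.5%), against 4.25% of all tested genes. They made up 6 of 16 EGR, NR4A and KLF factors, 6 of 31 feedback inhibitors, 7 of 26 secreted and other genes, 1 of 14 AP-1 and bZIP factors and 0 of 21 upstream kinases and factors. Ratios over 2 were those of the epidermal growth factor family ligand gene Areg (2.93), Apold1 (2.86), the kinase gene Sik1 (2.46), the MAPK phosphatase gene Dusp5 (2.40), the flow-induced factor gene Klf2 (2.19), the receptor feedback inhibitor gene Errfi1 (2.16) and the mRNA decay factor gene Zfp36 (2.05). Areg and Dusp5 are scarce, at 0.27 and 2.10 CPM in replicate 2. The ratio was chosen as a measure after the values of the 10 genes were seen.

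**Figure D5:**
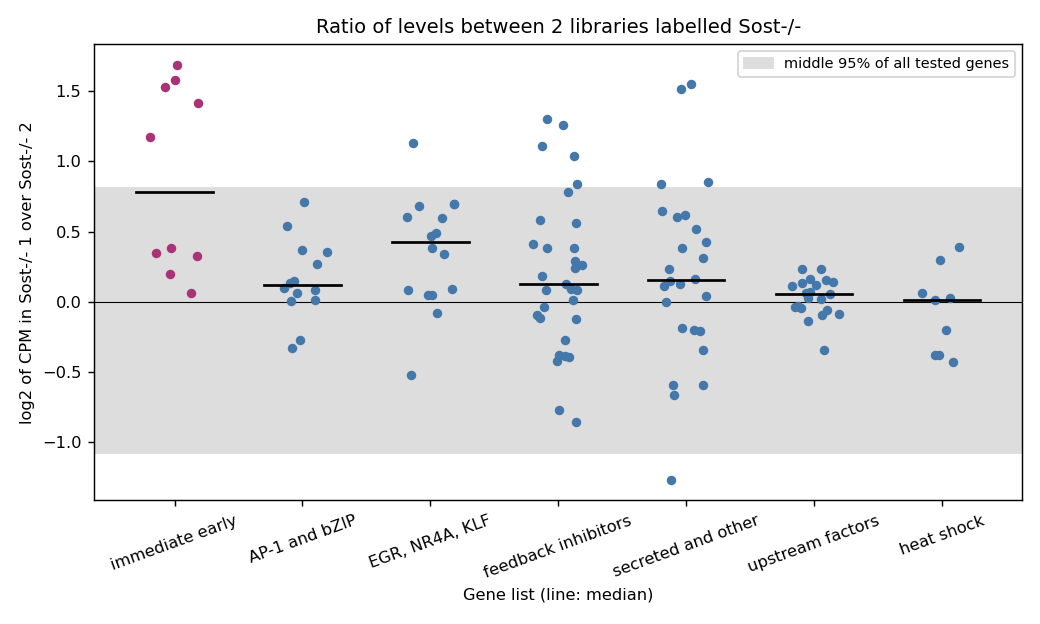
Log2 of the ratio of CPM in Sost-/- replicate 1 to that in replicate 2 (vertical axis) for each tested gene of 7 lists (points, spread sideways for sight; lines are medians); the grey band holds the middle 95% of all tested genes, from -1.08 to 0.81. Fos, Fosb, Egr1, Nr4a1 and Dusp1 lie above the band, and the upstream factors and heat shock genes stay within it.

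Outside these lists, the genes with a profile most like the mean profile of the 10 were sought among genes with a mean of at least 10 CPM. The measure was the mean absolute difference in centred log2 CPM over 6 libraries. The mean profile of the 10 was -0.08, -0.01 and 0.04 in Sost+/+ replicates 1 to 3 and 0.43, -0.43 and 0.05 in Sost-/- replicates 1 to 3. Nearest were Ky, a gene of muscle cell structure (mean difference 0.035), Lrrc3b (0.058), Pik3c2b, a phosphoinositide kinase gene (0.074), Slc25a25, a mitochondrial carrier gene (0.076), Auts2 (0.080) and Ptprb, a phosphatase gene of endothelium (0.083). Ky was at 0.43 in Sost-/- replicate 1 and at -0.33 in replicate 2, and Slc25a25 at 0.43 and -0.29. The 10 genes themselves lay farther from their mean profile, by 0.12 (Ier2) to 0.47 (Atf3), so the likeness is to an average. It is a description of these 6 libraries and carries no test.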

How the data were processed

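Per the labels' protocols, RNA was extracted from 6 aortic roots in Trizol and made into strand-marked libraries. The deposited counts are whole reads per gene symbol; DRAGEN, HTSeq, DESeq2 and mm10 are listed by the submitters' processing notes without versions, and no source used here gives the annotation or strand setting. A second deposited table, of normalized values, was not used. All count columns were matched to samples by title, and groups by the genotype label.

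Genes were kept by filterByExpr (minimum count 10, minimum total count 15), scaled by TMM, and compared by the quasi-likelihood test of edgeR 4.0.16 in R 4.3.3 (glmQLFit, glmQLFTest), with Benjamini-Hochberg adjustment over 15096 genes and a threshold of 0.05. SE is the absolute log2 fold change divided by the square root of F. Log2 CPM used a prior count of 2. DESeq2 1.42.0, limma 3.58.1 (voom), other scalings and filters, and leaving out each library were alternatives. On simulated data for this comparison (15000 genes), 16.4%, 68.7% and 90.9% of changes of 0.5, 1 and 2 (log2) were recovered, and 14 of 131 calls were false. These shares were not split by spread, so they do not give the recovery for genes as variable as Fos, Fosb, Egr1, Nr4a1 and Dusp1.

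Named genes were the 10 members, Sost, and of each related list the genes called (up to 6) or the 2 of smallest p, plus the 6 nearest profiles. Members and lists were chosen with earlier results of these data known.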

Additional observations from a re-analysis of the deposited data

How the results depend on the processing

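Between 0 and 1 of the 10 immediate early genes were called in each edgeR and limma setting, and 0 were higher. The count lower was 0 to 1 when 1 library was left out of the edgeR fit, and 0 without Sost+/+ replicate 1 or Sost-/- replicate 3. DESeq2 with a library left out, added after the data were seen, gave 0 to 3 higher and 1 to 2 lower. Its 3 higher calls came without Sost-/- replicate 2, and its second lower call was Jun (-0.31, DESeq2 adjusted p = 0.0490) without Sost-/- replicate 1. Median fold change ran from -0.11 to 0.30 and median SD from 0.20 to 0.35 with a library left out.

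Signs turned in 12 of 420 values of single genes, none past the threshold. With total counts as the scale, which moved the median of all genes from 0.01 to 0.13, Junb was at 0.0074 and Ier3 at 0.092. Nr4a1 was at -0.022 by limma-voom, -0.071 with library weights, and -0.0028 (without Sost+/+ replicate 1) and -0.30 (without Sost-/- replicate 1) by DESeq2. In DESeq2 without Sost-/- replicate 1, Dusp1 was at -0.18 and Ier2 at -0.065. With a library left out of edgeR, Nr4a1 ran from -0.29 to 0.46, Dusp1 from -0.17 to 0.45, Ier2 from -0.052 to 0.17 and Ier3 from -0.069 to 0.00086, the lowest of the first 3 without Sost-/- replicate 1 and the highest of Ier3 without replicate 2.

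Over all genes edgeR called 329 higher and 56 lower, 85.5% of calls higher. DESeq2 called 771 and 434 (64.0% higher), total-count scaling 728 and 27 (96.4%). The count lower was 92 with no filter and 140 with library weights (75.9% of calls higher). With 1 library left out, 0 to 313 were higher and 0 to 37 lower. The lowest counts were 0 in all without Sost+/+ replicate 1 (2262 at an unadjusted p under 0.05) and 10 without Sost-/- replicate 3 (1714). Related rapid-response genes numbered 1 higher and 1 lower. Lower were 0 with upper quartile factors, 0 with total counts (2 higher), 2 with no filter, 6 by DESeq2 and 2 with library weights, and with a library left out 0 to 1 were higher and 0 to 1 lower. The cause of these changes was not tested. No paired analysis was possible because the labels give the groups no shared replicate numbers. Genes with few counts, such as Fosb (56 at least, a counting SD of 13.4%), carry the largest counting error.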

Other observations

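Among 108 related rapid-response genes, 6 (5.56%) were over 1.5 times as high in Sost-/- replicate 2 as in replicate 1, no more than the 7.32% of all tested genes, so the count is not a result about the related genes. Their values are given as a description. They were the phosphatase genes Dusp4 (3.08, 5.58 and 4.49 CPM in Sost-/- replicates 1 to 3) and Dusp14, the chemokine genes Ccl7 (4.07, 9.77 and 8.78 CPM) and Cxcl2, the protease gene Plau (10.4, 16.4 and 13.5 CPM) and Arc (6.92, 10.4 and 8.95 CPM). None of the 6 passed between the groups in edgeR.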
